A study of Rosa chinensis with 4 samples.

Results

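The loci described here are chains of acetylated chromatin in rose petals, each made of 4 or more H3K9ac peaks with gaps of at most 1000 bp between neighbours. Members were selected on the start and end of each peak in the deposited list for the assembly RchiOBHm, on its 7 chromosomes, and on no other value. The rule found 1345 loci that hold 6572 of the 46391 peaks on the chromosomes (14.2%), while 22960 peaks stood alone, 11498 formed pairs and 5361 formed chains of 3. The series has 4 samples of 1 library each from petals of Rosa chinensis taken when the flower starts to open: a ChIP against H3K9ac, a ChIP against H3K27me3, and an input for each antibody. Petals were fixed in formaldehyde before nuclei were isolated, and no genotype, treatment or age is given beyond the stage. Only the H3K9ac library is analysed here. It has no replicate, so no p-values are given, and the 95% intervals cover counting error only. Those of peak heights leave out the error of the local background.

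H3K9ac is histone H3 carrying an acetyl group on lysine 9. Acetyl groups are added by histone acetyltransferases such as GCN5, known from yeast and Arabidopsis, and removed by histone deacetylases. The mark loosens the hold of histones on DNA, is bound by bromodomain proteins, and in plants is found mainly around the start of transcribed genes.

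The chains were short runs. Of the 1345 loci, 728 (54.1%) had 4 peaks, 325 had 5, 145 had 6 and 90 had 7. Only 57 loci had 8 or more and 19 had 10 or more, up to a single locus of 15. A locus had a median length of 4074 bp (quartiles 3157 and 5381 bp) and ranged from 1299 to 21103 bp. Peaks covered a median of 64.8% of it, from 26.8% to 91.2%. Together the loci spanned 6.08 Mb, and their peaks covered 4.01 Mb, which is 14.9% of all sequence under peaks on the chromosomes. The median gap inside a locus was 325 bp and the median distance from one summit to the next was 903 bp. No 2 peaks of the list lay closer than 101 bp, so a dip in signal shorter than this does not show as a gap.

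**Figure D1:**
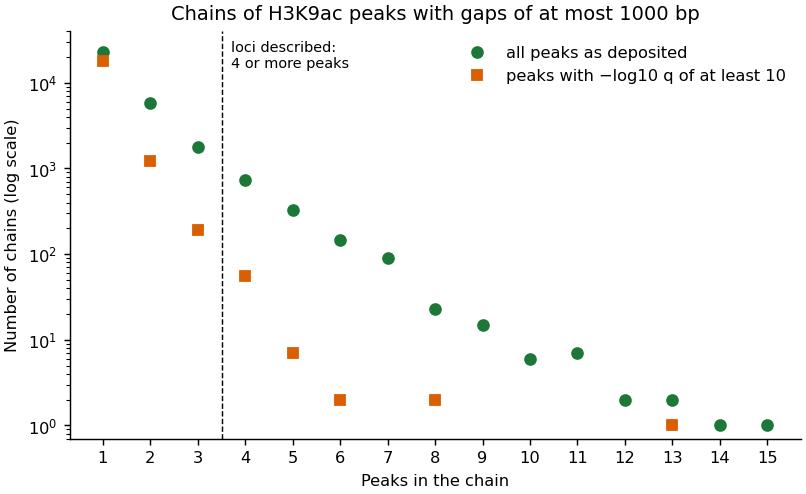
Number of chains (log scale) by the number of peaks in the chain, for all peaks as deposited (green circles) and for peaks with a −log10 q of at least 10 (orange squares). There are 728 chains of 4 in the deposited list and 55 among the stronger peaks, and 67 chains of 4 or more are left in all.

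Weak peaks made up most of the members, and most loci joined at least 1 strong peak to weaker ones. Fold enrichment is the authors' own value for each peak, the fragments at its summit over the local background, with 1 added to both. Whether the background came from the input library is not stated. Its median was 4.14 in members (quartiles 3.31 and 6.59), beside 5.54 in single peaks, 4.19 in pairs and 4.10 in chains of 3. A fold of at least 5 was reached by 2412 members (36.7%, interval 35.5 to 37.9), and by 46.6% of all peaks on the chromosomes. A −log10 q of at least 10 was reached by 2379 members (36.2%), and by 45.7% of all. These values come from the list that chose the members and are given as a description. Depth was modest: the median summit held 19 fragments in members, with a range of 9 to 196, and 26 in single peaks. The local background was alike, with medians of 3.65 and 3.50 fragments.

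When only peaks with a −log10 q of at least 10 were chained, 67 loci were left in place of 1345. Most chains as defined therefore rest in part on peaks under that q-value. Of the 1345 loci, 128 (9.52%) held no peak past that q-value, 504 (37.5%) held 1, 416 (30.9%) held 2, 188 (14.0%) held 3 and 109 (8.10%) held 4 or more. The edge of the rule showed no step. There were 663 gaps of 901 to 1000 bp in the whole list and 663 in the next 100 bp, up to 1100 bp. The 89 chains of 4 whose widest gap was 901 to 1000 bp had a median fold of 4.18 and a median width of 416 bp. The 129 runs that missed 4 peaks only through a gap over 1000 bp and up to 1100 bp had 4.10 and 415 bp.

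Member widths were spread widely. The median was 397 bp, against 518 bp for single peaks, and 1335 members (20.3%) were under 200 bp, against 15.8% of single peaks, 21.7% of pairs and 20.9% of chains of 3. At the other end, 518 members (7.88%, 7.24 to 8.56) were 1500 bp or wider, against 2.99% (2.78 to 3.22) of single peaks, 4.19% of pairs and 5.13% of chains of 3. Such a wide peak was present in 448 of the 1345 loci (33.3%). The narrow share was thus no higher than in pairs and chains of 3, while the broad share was the highest of the 4 sizes. The rule partly fixes these values, since a chain is built from peak edges.

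Within a locus, height was uneven. The highest peak had a median fold of 9.49 and a median width of 1009 bp, the second 5.27 and 550 bp, and the peaks of rank 3 and lower 3.48 and 271 bp. The highest was a median of 1.56 times the second (quartiles 1.19 and 2.11) and 3.10 times the lowest. Counting error was large beside the first step: the interval of the highest peak lay wholly above that of the second in 398 loci (29.6%), and above that of the lowest in 977 (72.6%). Ranks were set by these same folds, which by itself drives the highest and lowest apart. The shares therefore do not measure how far heights differed beyond counting error. In 892 loci (66.3%) the highest peak was also the widest. Every peak reached a fold of 5 in 23 loci (1.71%), and none did in 126 (9.37%).

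The tall peaks tended to sit at the edges of a chain. The first or last position held the highest peak in 734 of 1345 loci (54.6%, 51.9 to 57.3), whereas the outer positions made up a mean of 43.2% of the positions of a locus. In chains of 4 the median fold was 4.30, 4.01, 4.04 and 4.31 from the first to the last position. In chains of 6 it was 4.61 and 4.64 at the outer positions and 3.88 to 4.02 inside. In the 90 chains of 7 it was 5.75 at the first and 4.55 at the last, and 3.89 to 4.35 between. Quartiles of neighbouring positions overlapped in all 4 sizes plotted. Outer peaks were also at gene ends more often than inner ones, with 51.2% (49.2 to 53.1) of their summits against 39.1% (37.6 to 40.7).

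**Figure D2:**
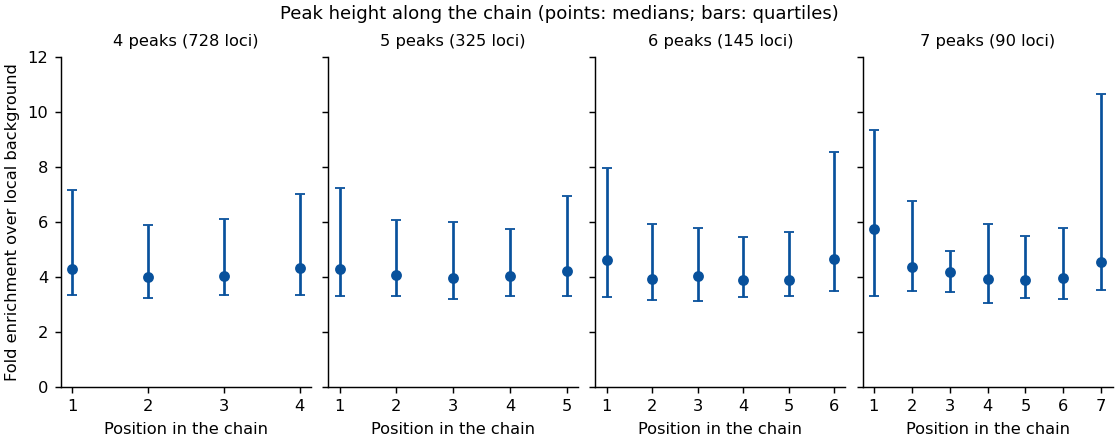
Fold enrichment over local background by position along chains of 4, 5, 6 and 7 peaks, numbered in the direction of the chromosome coordinates; points are medians and bars are quartiles over loci. Medians of the outer positions, 4.30 and 4.31 in chains of 4, lie above those of the inner ones, and the quartiles overlap.

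Genes were read from the RefSeq table for RchiOBHm-V2, which the rule did not use. It has 30798 protein-coding genes on the 7 chromosomes and gives neither strand nor product names, so gene starts and stops are both called ends, and genes are named by identifier only. Member summits lay at gene ends less often, and deeper inside genes more often, than single peaks. Protein-coding gene ends, meaning the outermost 1 kb inside such a gene, held 2895 of 6572 member summits (44.1%, 42.8 to 45.3). They held 50.4% (49.8 to 51.1) of single peaks, 50.3% of pairs, 47.8% of chains of 3 and 50.02% of all peaks that are not members. Deeper in such genes lay 1524 member summits (23.2%, 22.2 to 24.2), against 7.80% (7.45 to 8.15) of single peaks, 19.03% of pairs and 23.7% of chains of 3. Outside genes but within 1 kb were 14.3% of member summits and 6.64% of those of single peaks, with 10.4% in pairs and 13.1% in chains of 3. More than 1 kb from any gene were 14.6% (13.7 to 15.5) of member summits and 24.04% (23.5 to 24.6) of those of single peaks. Pairs and chains of 3 were lower than members there, at 12.1% and 10.3%. Genes of other types held 3.85% of member summits, 11.1% of those of single peaks, 8.20% in pairs and 4.98% in chains of 3. Neighbouring peaks share a locus and are not independent, so the intervals are narrower than the true uncertainty.

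**Figure D3:**
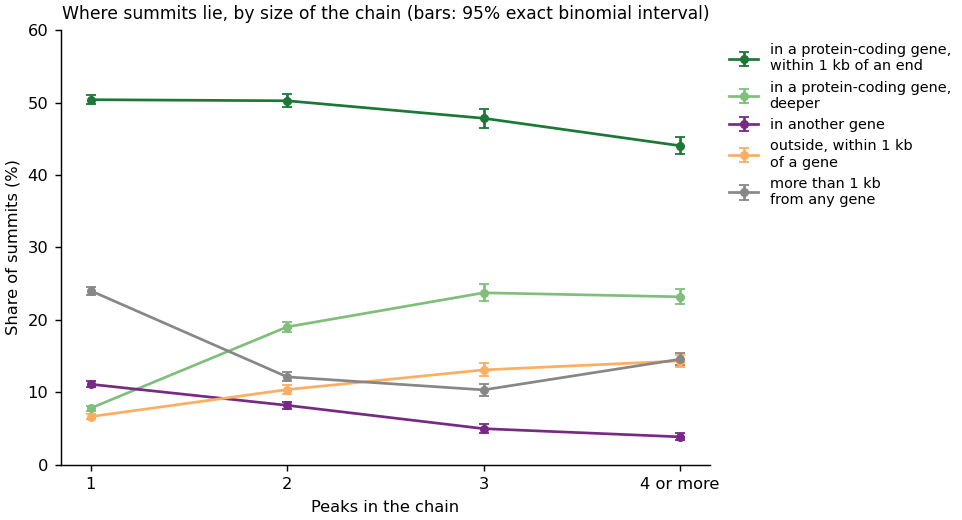
Share of summits (%) in each of 5 locations by number of peaks in the chain; bars are 95% exact binomial intervals. From single peaks to chains of 4 or more, the share deep in protein-coding genes goes from 7.80% to 23.2% and that of summits farther than 1 kb from genes from 24.04% to 14.6%, with its lowest value, 10.3%, in chains of 3.

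Peak height moved with location, so the comparison was repeated within classes of fold. Among peaks of fold 5 or more, 58.2% (56.2 to 60.1) of member summits and 59.8% (58.9 to 60.6) of those of single peaks were at gene ends, intervals that overlap. Deeper in genes they were 12.7% (11.4 to 14.1) and 4.97% (4.59 to 5.36). Among peaks of fold under 5, gene ends held 35.9% (34.4 to 37.3) and 38.8% (37.8 to 39.7), and gene interiors 29.3% (27.9 to 30.7) and 11.3% (10.7 to 11.9). Against single peaks, the larger share deep in genes was thus present in both classes, and the smaller share at gene ends was seen among the weaker peaks. Against shorter chains the picture differed. At fold 5 or more, gene ends held 66.0% (64.6 to 67.3) of summits in pairs and 63.1% (60.9 to 65.3) in chains of 3, both above members. Under fold 5 they held 39.9% and 39.4%, also above members. Deeper in genes, chains of 3 were close to members, at 13.2% and 29.6% in the 2 classes.

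Inside a locus, location followed rank. The highest peak was at a protein-coding gene end in 918 of 1345 loci (68.3%, 65.7 to 70.7), the second in 633 (47.1%, 44.4 to 49.8), and peaks of rank 3 and lower in 1344 of 3882 cases (34.6%, 33.1 to 36.1). Deeper in genes the shares went the other way, at 11.3%, 22.01% and 27.7%. In the 1 kb outside genes they were 5.95%, 13.7% and 17.5%. Lower peaks of a locus were thus more often in gene interiors and flanks than its highest peak.

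**Figure D4:**
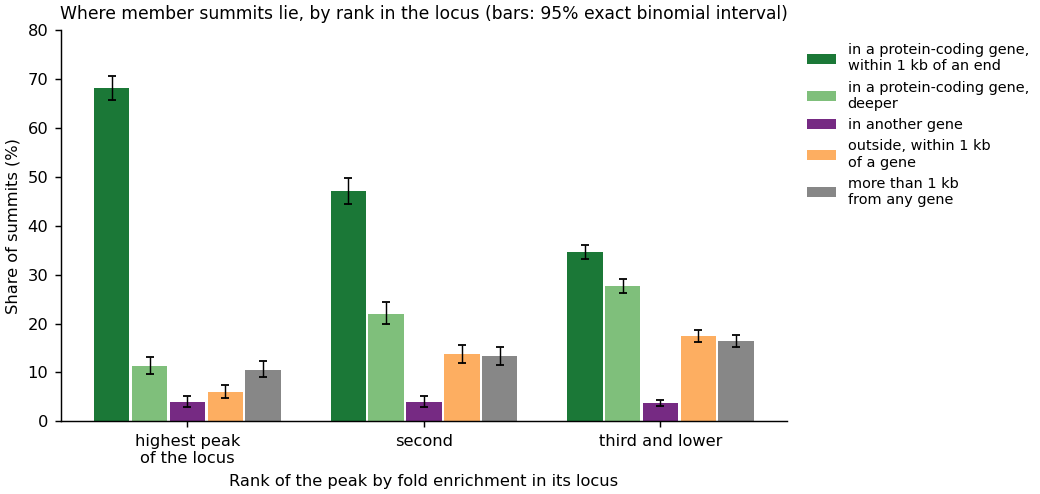
Share of member summits (%) in each location for the highest peak of a locus, the second, and those of rank 3 and lower; bars are 95% exact binomial intervals. Gene ends hold 68.3% of the highest, 47.1% of the second and 34.6% of the rest.

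Gene ends that fell inside loci lay in gaps between peaks to a larger share than the share of length in gaps. The loci contained 2168 ends of protein-coding genes, of which 1086 (50.1%, 48.0 to 52.2) were in a gap, while gaps made up 34.02% of the length of the loci. In chains of 3 the values were 45.7% of 1540 ends and 32.1% of the length, and in pairs 39.0% of 2805 ends and 25.8%. A gene end was held by 923 of the 5227 gaps inside loci (17.7%). Those gaps were wider, with a median of 528 bp against 285 bp for the other 4304, and a wide gap has more room for an end. The higher of their flanking peaks had a median fold of 7.34, against 5.41 at gaps with no gene end. The lower flanking peaks were alike, at 3.66 and 3.43.

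Most loci touched at least 1 protein-coding gene. One such gene was overlapped by 685 of 1345 loci (50.9%), exactly 2 by 444 (33.01%), 3 or more by 97 (7.21%), and none by 119 (8.85%). For single peaks, 1.55% touched 2 or more, for pairs 9.58% and for chains of 3 19.2%, and the length of a run by itself raises this number. Loci with 2 genes had a median length of 4678 bp and a median highest fold of 10.7, against 3634 bp and 8.85 for those with 1. They also held more peaks, a median of 5 against 4, which by itself raises the highest fold. The median fold within a locus was 4.40 against 4.06. Of the 444 loci with 2 genes, 430 had a member summit in both genes, and 234 (52.7%, 47.9 to 57.4) had a summit of fold 5 or more in both. In the 430, the higher gene's top peak was a median of 1.66 times that of the lower. Overlapping genes can share a summit.

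Chains inside a single gene formed a smaller group. In 283 loci (21.04%, 18.9 to 23.3) every summit lay in 1 protein-coding gene, and 194 of them (14.4% of all loci) lay wholly within it, ends of the locus included. The highest peak of these 283 was within 1 kb of a gene end in 188 (66.4%, 60.6 to 71.9), at a median distance of 587 bp. The other 960 peaks were within 1 kb in 337 cases (35.1%, 32.1 to 38.2), at a median of 1314 bp. Genes that were the sole protein-coding gene of such a locus had a median length of 4439 bp (n = 265). The median was 2768 bp for all protein-coding genes, including those that met no peak. It was 3713 bp for genes overlapped by a single peak and 3116 bp for genes overlapped by any locus. The greater length of the 265 follows in part from geometry, since a gene must be long enough to hold a chain. The share fell when weak peaks were left out, as did the number of loci. Among the 63 loci left at a fold of at least 5, 0 had all summits in a single gene. That allows a share of up to 4.76% by a floor of 3 counts, with an exact upper limit of 5.69%. At a −log10 q of at least 10 the share was 4.48% of 67 loci. Peaks of the 63 loci were also wider, with a median of 992 bp against 397 bp. Whether height or width accounts for the fall was not tested.

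In all, 1861 of 30798 protein-coding genes (6.04%) were overlapped by a locus. Of other gene types, 80 of 6193 lncRNA genes, whose transcripts are long and do not code for protein, were overlapped (1.29%). So were 49 of 2585 pseudogenes (1.90%), 18 of 451 snoRNA genes (3.99%, 2.38 to 6.24), which guide the modification of ribosomal RNA, and 14 of 498 tRNA genes (2.81%, 1.55 to 4.67). Of the 263 rRNA genes, 0 were overlapped by a locus, but only 6 were met by a single peak or a chain of any size. Gene types differed in how often they met such a run at all, gaps included. The share was 61.6% of protein-coding, 10.2% of tRNA and 2.28% of rRNA genes. Among genes met by a single peak or a chain of any size, loci overlapped 1861 of 18968 protein-coding genes (9.81%, 9.39 to 10.2) and 80 of 2473 lncRNA genes (3.23%, 2.57 to 4.01). On that base they overlapped 18 of 123 snoRNA genes (14.6%, 8.91 to 22.1) and 14 of 51 tRNA genes (27.5%, 15.9 to 41.7), so the order of tRNA against protein-coding genes depends on the base. The snoRNA interval includes the protein-coding share. A member summit lay inside 1830 protein-coding genes. Of these, 1245 held 2 or more, 444 held 4 or more and 38 held 6 or more.

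The genes with the most member summits carried mainly low peaks. LOC112196171 on chromosome 4 (55890914 to 55905208, 14295 bp) had 10 in 2 loci, with folds of 2.63 to 5.56, and member peaks covered 27.4% of it. LOC112184063 on chromosome 2 (28978508 to 29065702), a gene of 87195 bp with 6.96% under member peaks, had 9 in 2 loci, the highest at 14.9 (11.8 to 18.5), which lay 2151 bp from the nearer end. LOC112186553 on chromosome 2 (84501959 to 84513907) also had 9, up to 15.5 (12.1 to 19.6), and 65.3% of its 11949 bp was under member peaks. These 3 genes thus differed greatly in how much of their length lay under member peaks.

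LOC112197259 and LOC112197410 on chromosome 4 had 8 each, with highest folds of 9.43 (7.00 to 12.4) and 14.6 (11.3 to 18.6). In the shorter LOC112172558 on chromosome 6 (5418 bp), all 8 were low, from 2.82 to 4.94, and none reached a fold of 5. The remaining 4 of the top 10 had 7 each. LOC112167882 on chromosome 5 reached 9.32, LOC112176578 on chromosome 7 reached 11.6, and LOC112169909 on chromosome 6 and LOC112200380 on chromosome 4 reached 5.79 and 6.15. In LOC112169909 and LOC112176578 member peaks covered 69.3% and 68.5% of the gene, but in LOC112167882 9.11%.

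The locus with the most peaks lay almost wholly outside annotated genes. It ran on chromosome 1 from 35996846 to 36017948 (21103 bp) and held 15 peaks with folds of 2.61 to 13.03. In order along the chromosome the folds were 4.18, 2.61, 6.64, 6.39, 9.73, 9.35, 7.87, 7.58, 13.03, 10.3, 7.38, 9.10, 8.85, 12.05 and 7.13. Only the first 2 peaks were under 5. The next 12 ranged from 6.39 (4.22 to 9.32) to 13.03 (9.80 to 17.02). These intervals did not overlap, but the 2 peaks were picked as the lowest and highest of the 12. The intervals therefore do not show a difference beyond counting error.

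In that locus 14 of the 15 summits were more than 1 kb from any gene. Just the last peak, from 36015187 to 36017948, was at a gene, and it covered 98.6% of the protein-coding LOC112189719 (36015152 to 36017729). From the third peak to the fourteenth, a stretch chosen after the values were seen, summits followed each other every 1166 ± 208 bp (SD over 11 spacings in 1 library), from 815 to 1624 bp. The coefficient of variation was 0.178 in that stretch, and no other locus was trimmed in this way. Over the whole locus it was 0.484, which is close to the median of 0.485 (range 0.269 to 1.06) in the 57 loci of 8 or more peaks. The background under the 15 peaks had a median of 3.07 fragments and a highest of 4.14. That median equals the lowest background on the chromosomes. Of all 46391 peaks, 9642 (20.8%) were at or close to it. The share was 25.6% in single peaks and only 10.8% in members (707 of 6572).

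**Figure D5:**
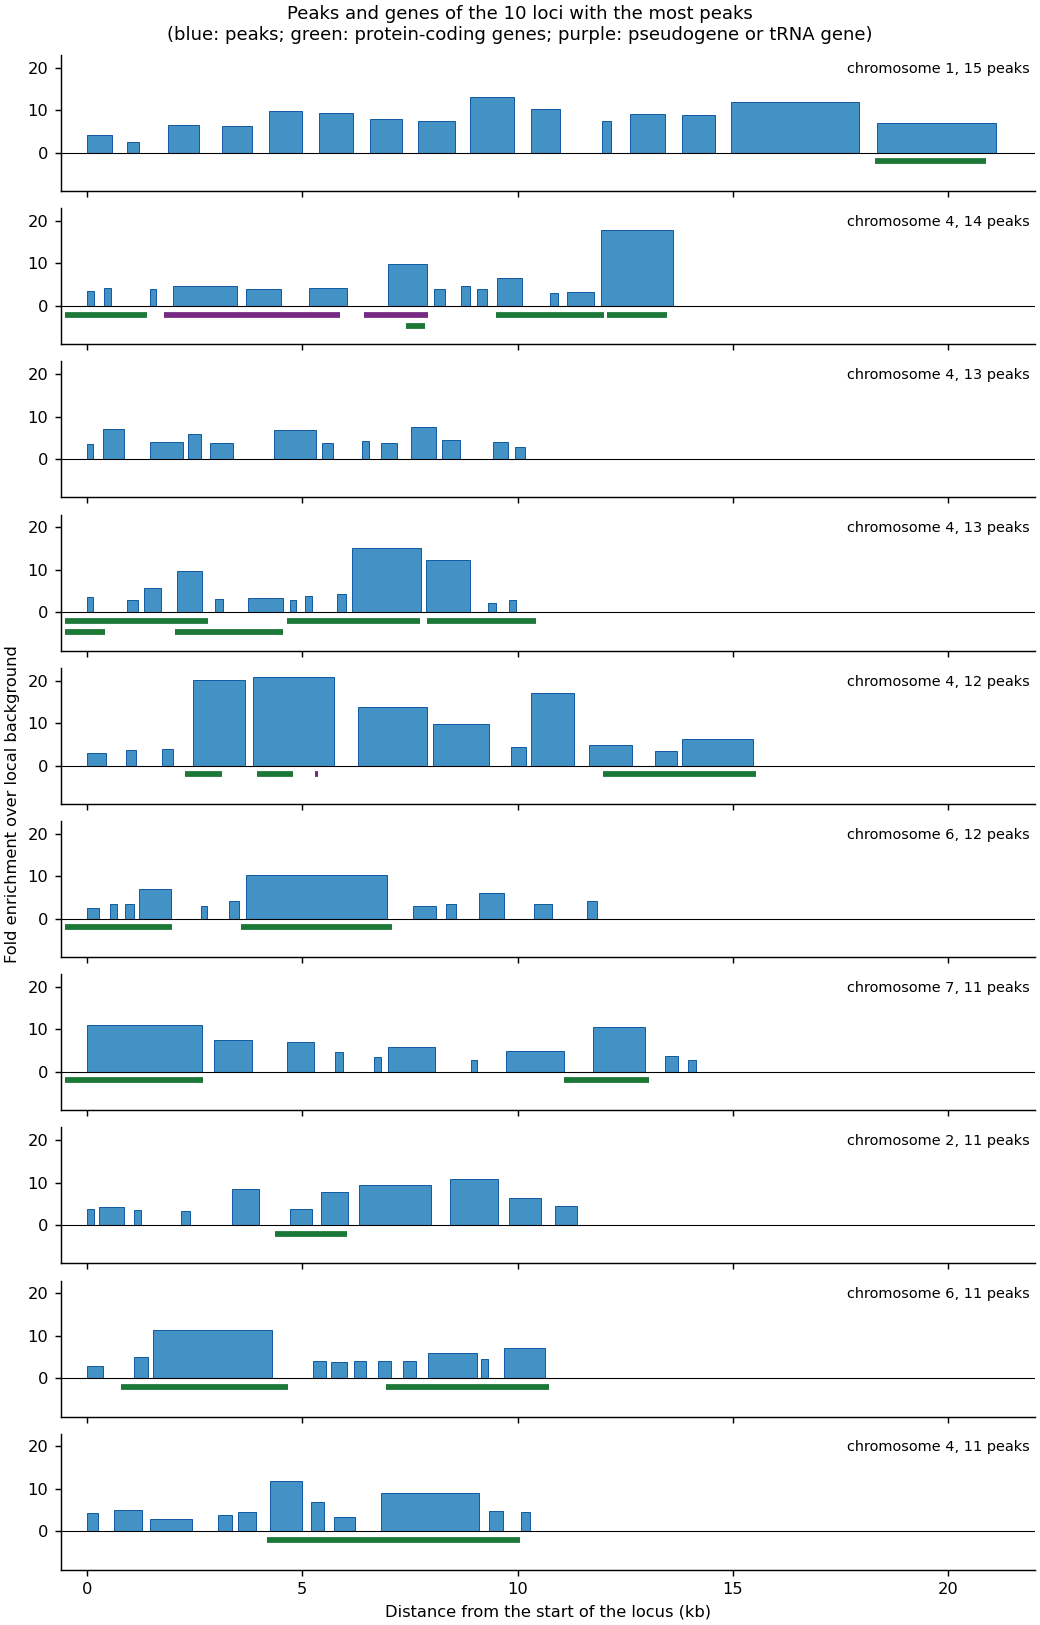
Peaks (blue, width to scale, height as fold enrichment over local background) and genes (green protein-coding, purple pseudogene or tRNA gene, drawn up to 500 bp beyond the locus) of the 10 loci with the most peaks, by distance from the start of the locus in kb. The first locus, with 15 peaks on chromosome 1, has a gene at its right edge only, the third locus has no gene, and the chromosome 4 locus of 12 peaks holds the tallest, at 20.8.

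Chromosome 4 held 5 of the 10 loci with the most peaks. The locus of 14 peaks, from 64454204 to 64467816, covered parts of 4 protein-coding genes and 2 pseudogenes. Its highest peak, of fold 17.9 (14.4 to 21.9), spanned all 1405 bp of LOC112199908 at the right edge. The next, of 9.83 (7.09 to 13.3), lay in the pseudogene LOC112196190 and covered the short protein-coding LOC112199764 inside it. LOC112199907 (64463697 to 64466202) had 3 summits with a highest fold of 6.69, the pseudogene LOC112200162 had 3 with folds up to 4.67, and LOC121052539 at the left edge had 2 up to 4.15. Peaks past a fold of 5 were these 3, in 2 genes and 1 pseudogene, and the other 11 lay between 2.95 and 4.67.

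The 13 peaks from 62272284 to 62282238 on chromosome 4 lay on a row of closely spaced genes. A pair of tall neighbours, of fold 15.1 (12.1 to 18.8) and 12.4 (9.51 to 15.9), was separated by a gap of 109 bp. The facing ends of LOC112197404 (62276923 to 62280008) and LOC112198042 (62280186 to 62282711) lay under those peaks, on either side of the gap. Another, of 9.72 (7.02 to 13.2), was near an end of LOC112197409, in the stretch it shares with LOC112197410. The other 10 peaks ranged from 2.24 to 5.65.

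The locus of 12 peaks from 63147066 to 63162518 was the one with the tallest peaks among these 10. Peaks of 20.2 (16.3 to 24.7) and 20.8 (16.9 to 25.3) lay over the short genes LOC112197635 (873 bp) and LOC112197636 (839 bp), and the second also covered a glycine tRNA gene, TRNAG-GCC. Further peaks of 13.8 (10.8 to 17.4), 9.80 (7.28 to 12.9), 4.43 and 17.2 (13.7 to 21.2) followed in the stretch without annotated genes up to LOC112200573 (63159049 to 63162590). Inside that gene the 3 summits had folds of 4.79, 3.35 and 6.16 (4.28 to 8.63). Intervals of the peaks of 13.8 and 17.2 outside genes lay above those of all 3, while the interval of the peak of 9.80 overlapped with that of the highest.

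A locus of 13 peaks on chromosome 4 from 15997877 to 16008056 touched no gene, and the nearest lay 8448 bp away. Its folds ran from 2.95 to 7.65 (5.30 to 10.7 for the highest), and 4 of 13 reached 5. Peak widths were 149 to 967 bp, and the background rose to 6.63 fragments. Altogether 81 loci (6.02%, 4.81 to 7.43) overlapped no gene of any type, with a median distance of 3212 bp to the nearest one, a median highest fold of 8.34 and a median length of 3546 bp. Of these, 29 lay more than 5 kb from any gene, the farthest at 18897 bp. Single peaks overlapped no gene in 29.4% of cases and chains of 3 in 7.67%, and longer runs have more chance to meet a gene. A gene-free locus on chromosome 7 from 32405332 to 32416082, chosen after its values were seen, had 9 peaks with a median fold of 9.18 and lay 495 bp from a gene.

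In the other 5 loci among the first 10 the highest fold was between 10.2 and 11.8. On chromosome 6, 12 peaks from 59977418 to 59989252 included 1 of 3271 bp and fold 10.2 (7.52 to 13.5), which covered 93.2% of LOC112174760, while LOC112174761 held 4 summits of up to 7.03. Also on chromosome 6, 11 peaks from 64260269 to 64270906 included 1 of 2751 bp (fold 11.4, 8.66 to 14.8) in LOC112174709, and 5 summits of up to 7.20 in LOC112174547. On chromosome 7, a peak of 2672 bp (11.1, 8.42 to 14.3) at one end of LOC112175329 opened the 11 peaks from 8126228 to 8140378, and LOC112180462 near the other edge reached 10.6. On chromosome 2, the highest of 11 peaks from 83145247 to 83156632 (10.9, 8.17 to 14.3) lay outside LOC112185897, the one gene of the locus. On chromosome 4, LOC112200074 held 5 of the 11 summits from 20920279 to 20930568, with the highest fold of 11.8 (8.98 to 15.4).

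The 5 longest loci not yet named each held a broad peak, with widths of the broadest from 1980 to 5907 bp. A locus of 9 peaks on chromosome 2 from 85731976 to 85750854 (18879 bp, 79.2% covered) carried folds of 12.7, 11.3, 17.3 and 15.1 in its last 4 peaks, and the first 5 ranged from 2.68 to 6.81. Those 4 peaks covered 96.5% of LOC112185351, 98.6% of LOC112190282 and 57.8% of LOC112188201. On chromosome 5, 10 peaks from 80719276 to 80732405 covered nearly all of LOC112164880 (99.9%) and all of LOC112164882, at folds of 10.02 (7.37 to 13.3) and 14.9 (11.5 to 19.04). These adjoining genes thus lay under peaks along nearly their whole length.

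On chromosome 4, 6 peaks from 47915360 to 47928264 had folds of 3.53 to 17.2 (13.6 to 21.5 for the highest, over the pseudogene LOC112197937). A pair of loci on chromosome 2, from 8443681 to 8456566 and from 8468252 to 8480966, had 6 peaks each. The first covered all of LOC112187273 under a peak of 4805 bp and fold 15.5 (11.96 to 19.8), and all of the lncRNA gene LOC112189101. The second covered 94.0% of LOC112190746 under a peak of 5907 bp and fold 16.4 (13.2 to 20.2), and 76.9% of LOC112190747.

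In the 2 loci with the highest single peaks, 1 tall peak stood among small ones. On chromosome 6, from 57915632 to 57919728, the folds of 4 peaks were 3.71, 30.4 (25.4 to 36.01), 3.18 and 3.48. The tall one, from 57916634 to 57917706, lay outside LOC112172890, which starts at 57918243 in the table. On chromosome 4, from 62774899 to 62780030, the 7 folds were 2.40, 3.47, 4.34, 28.4 (23.8 to 33.7), 3.45, 3.02 and 2.43, with the tall peak inside LOC112197502. Intervals of these tall peaks did not overlap with those of any neighbour in their locus. Both loci were picked for their highest fold, so this is a description only.

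Next were 27.9 (23.1 to 33.4) in LOC112193607 on chromosome 3, in 5 peaks from 13726098 to 13731447, and 25.8 (21.4 to 31.0) in LOC112179105 on chromosome 7, in 4 peaks from 17059349 to 17064181. On chromosome 2, in 7 peaks from 11610674 to 11619145, 25.1 (20.8 to 30.1) was reached in LOC112190626. In each of these 3 loci the tall peak was the first or the last of the chain.

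Along the genome, loci followed the peaks. The share of a chromosome's peaks that were members ran from 11.9% (11.2 to 12.6) on chromosome 5 to 15.4% (14.6 to 16.3) on chromosome 6. Chromosome 4 was close to the latter at 15.2% (14.3 to 16.1), with overlapping intervals, and had 14 of the 57 loci with 8 or more peaks, against 6 to 8 on each other chromosome. Chromosome 2 had the most loci, 250, and chromosome 3 the fewest, 148. Per Mb up to the last peak, the order differed, with 2.82 loci on chromosome 2 and 2.98 on chromosome 3. The lowest density was 2.09 on chromosome 5 and the highest 3.06 on chromosome 6. Median folds of members were between 4.04 and 4.21 on all 7 chromosomes. Over 507 windows of 1 Mb with a peak, the median was 2 loci and 115 windows had none. Across windows, loci and peaks were correlated at 0.849 (Pearson) and 0.819 (Spearman), a description in which both come from the same peaks. The window with the most loci was on chromosome 6 from 59000001 to 60000000, with 14 loci and 177 peaks, followed by chromosome 4 from 62000001 to 63000000 and chromosome 7 from 7000001 to 8000000 with 13 each.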

How the data were processed

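Peaks of 1 H3K9ac library from petals were used, as deposited for the assembly RchiOBHm. Tools listed in the submitters' processing notes are MACS2, SICER, Bowtie2, Trim Galore and FastQC, whose versions and parameters are not given there. Peaks were called on the single library, per the labels. The deposited score is the −log10 q multiplied by 10 without its decimals, as its values show, and was not used further. The deposited fold is a linear ratio of summit fragments to local background, and the p-value and q-value were deposited as −log10 values. The deposited summit is an offset from the start. Starts count from 0 in the list and from 1 here.

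Summit fragments, taken as whole numbers, and background were recovered from fold and Poisson p-value. The recovered values gave back the deposited −log10 p within 0.002 for 6571 of 6572 members. The recovery and the chaining were tested on simulated peaks. Intervals are exact Poisson (folds) or exact binomial (shares). Those of folds vary the summit fragments and hold the local background fixed, so they are narrower than the full counting error. The build of the gene table was checked against the list: gene ends held 46.7 to 51.9% of the summits of each chromosome, and 12.5 to 14.6% once summits were moved by 20 kb. Named loci are the 10 with the most peaks, then the 5 longest and the 5 with the highest fold not yet named. Named genes are those under them and the 10 with the most member summits. Members, rules and alternatives were chosen with earlier results of these data known. The planned comparison of proteins and promoters was not made, since no sequences were used here. Figures were drawn with matplotlib 3.10.9. Values were computed with scipy 1.17.1, pandas 2.3.3 and numpy 2.4.6 under Python 3.11.15.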

Additional observations from a re-analysis of the deposited data

Results flagged for a closer look

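The same chaining was applied to sequences outside the 7 chromosomes, which the comparisons above do not use. On the sequence named CP, 3 chains of 4 or more peaks held 35 of 66 peaks (53.0%), beside 14.2% of the peaks on the chromosomes. The chains were listed because they passed the 4.55% that a count of 0 allows, a limit that any single chain passes. The longest ran over 23177 bp with 24 peaks, and the median fold of these peaks was 1.85, with a highest of 2.58. On 28 unplaced sequences, 1 chain held 5 of 139 peaks (3.60%, where a count of 0 allows 2.16%), a smaller share than the 14.2% on the chromosomes, with folds up to 4.16.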

How the results depend on the processing

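Of 57 alternatives to 7 results, 13 stayed within the interval of the reported value, or within 1.5 times for the number of loci, and 44 moved. Chains without a peak of 150 or more fragments changed nothing beyond that. With gaps of at most 500 bp there were 581 loci, with 5.56% of peaks, 42.3% of summits at gene ends, 28.4% of loci with 2 or more genes, 30.5% in 1 gene and a median width of 380 bp. With 2000 bp these were 2301, 26.8%, 47.9%, 55.7% and 12.4%. With at least 3 peaks they were 3132, 25.7%, 45.8%, 28.3% and 32.4%, and the width was 382 bp. With at least 5 peaks they were 617, 7.89%, 42.6%, 50.7% and 13.6%. At a −log10 q of at least 10 they were 67, 1.40%, 39.9%, 49.3% and 4.48%, with a median fold of 8.25 and width of 965 bp. At a fold of at least 5 they were 63, 1.29%, 37.8%, 50.8% and 0%, with 8.51 and 992 bp. The list for RcHzRDP12, on 7088 sequences, gave 545 loci with 5.01% of peaks, a median fold of 4.48 and width of 356 bp. An inner zone of 500 or 2000 bp put 27.97% or 61.1% of member summits at gene ends. Counting a gene only when most of its length, 50% or more, lay in the locus left 19.03% of loci with 2 or more, and 14.4% of loci lay wholly in 1 gene. The cause of these shifts was not tested. Fewer peaks enter under the stricter thresholds by construction. No paired analysis was possible because each group has 1 library. At a median of 19 fragments a member's fold has a wide interval, and differences between neighbouring peaks of like height were not detectable at this depth.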

Other observations

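Loci of 8 or more peaks were ranked by the evenness of their spacing, after the values were seen. The lowest coefficient of variation of summit spacing over a whole locus, 0.269, belonged to 9 peaks on chromosome 1 from 54358680 to 54366173, with spacings of 369 to 1086 bp and folds of 2.82 to 9.66. This locus overlapped no gene, and the nearest lay 11404 bp away. The next, 0.273, was also on chromosome 1, from 35264220 to 35275055, with 10 peaks spaced by 722 to 1646 bp, folds of 2.71 to 7.63 and 2 overlapping genes. No genome sequence was used here, so the sequence under these loci was not examined.

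A raised local background of 10 fragments or more was found at 8 members in 5 loci. In the locus of 4 peaks on chromosome 4 from 27218960 to 27222226, at LOC112199055, all 4 had it, with up to 75.4 background fragments, up to 196 fragments at the summit and folds of 2.29 to 7.11. On chromosome 1, 1 of 7 peaks from 54796445 to 54801433, at LOC112182386, stood on 83.7 fragments at a fold of 1.75.

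Among the 23 loci in which every peak reached a fold of 5, the median length was 5932 bp and peaks covered a median of 80.6%. Of these, 13 overlapped 2 or more protein-coding genes and 4 overlapped no gene.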
